A study of Rattus norvegicus with 12 samples.

Results

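The 9 genes described here belong to the interferon response and to the processing of peptides for MHC class I. They are the transcription factor genes Irf1 and Irf7, the antiviral dynamin-like GTPase genes Mx1 and Mx2, the immunoproteasome subunit genes Psmb8 and Psmb9, the peptide transporter genes Tap1 and Tap2, and B2m, which encodes the class I light chain. They were chosen by name with earlier results of these data known, as were the gene lists used below. The shares of all probes given beside their counts are therefore descriptions. The platform annotation gave each of the 9 genes 1 probe. All 9 probes were among the 9137 of 22517 that passed the filter on dim probes, which kept a probe if 3 or more of the 12 arrays detected it with p under 0.05. Mx2 was detected on 7 arrays and the other 8 genes on all 12.

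Expression was measured in the intestinal mucosa of male rats, of the strain the labels spell Spraque Dawley, on Illumina bead arrays, in which a labelled copy of the RNA hybridizes to bead-bound probes. Sham rats had the bowel cut and rejoined, and the other rats lost 75% of the bowel, which serves as a model for short bowel syndrome (SBS). Sham ileum had 3 arrays, SBS ileum 4, sham jejunum 1 and SBS jejunum 4. The submitters linked the low number of arrays, from 6 rats per operation, to nucleic acid quality. All groups therefore had bowel surgery, and no unoperated rat was among them. Age, days since the operation and the sampled stretch of bowel are not given in the sources used. Sample codes were taken to be rat codes, although no label says so in words, and by these codes the jejunum of sham rat 33 and of SBS rats 36 to 39 was paired with the ileum of the same rat.

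Interferons are secreted proteins whose receptors signal through JAK kinases and STAT factors. Type I and III interferons act largely through the factor ISGF3 on interferon-stimulated response elements, and interferon gamma largely through gamma-activated sites and through IRF1. Class I presentation starts with cleavage of cytosolic proteins by the proteasome, in which Psmb8, Psmb9 and Psmb10 replace constitutive catalytic subunits. The TAP1 and TAP2 dimer then moves the peptides into the endoplasmic reticulum, where they are loaded onto a class I heavy chain bound to beta-2 microglobulin. In the gut, both epithelial cells and intraepithelial lymphocytes carry this machinery.

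The promoters of the members show which of these elements lie close to an annotated start site, so the stretch around the match is printed for 6 of them, from RefSeq windows of 300 bases on GRCr8 that start 250 bases upstream of a transcript start site. Positions are counted from the start site of the window. For Irf7, Psmb8 and B2m that site lies inside the outermost RefSeq bounds of the gene, and by those bounds the Irf7 and Psmb8 matches fall within the gene. A window was given for 8 of the 9 genes, without Mx2. The core of the interferon-stimulated response element, searched on both strands as GAAA, NN and GAAA in a row, N being any base, was found for Irf7, Tap1, Tap2, Psmb8 and B2m, that is 5 of the 8, and in 3.92% of all 33469 windows. A gamma-activated site, searched as TTCNNNGAA, which reads the same on both strands, was found for Irf1 and Psmb8, and in 8.87% of all windows. Capitals mark the match. The 5 core matches come first, and Irf1 is shown with its gamma-activated site.
Irf7, chr1:205800058-205800117, minus strand, match from position -69: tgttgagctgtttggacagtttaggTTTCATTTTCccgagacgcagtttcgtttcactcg
Tap1, chr20:4668630-4668689, minus strand, match from position -121: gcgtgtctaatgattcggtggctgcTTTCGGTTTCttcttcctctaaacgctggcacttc
Tap2, chr20:4652303-4652362, minus strand, match from position -41: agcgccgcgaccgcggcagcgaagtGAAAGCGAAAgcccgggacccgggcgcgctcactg
Psmb8, chr20:4657026-4657060, minus strand, match from position -4: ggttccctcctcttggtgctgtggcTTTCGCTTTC
B2m, chr3:129549155-129549214, plus strand, match from position -150: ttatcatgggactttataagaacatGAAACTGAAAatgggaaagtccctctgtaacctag
Irf1, chr10:38417768-38417826, plus strand, match from position -142: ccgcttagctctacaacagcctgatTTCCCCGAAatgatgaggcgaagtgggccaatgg
Psmb8, Psmb9, Tap1 and Tap2 all lie on chromosome 20, where Tap1 and Psmb9 are neighbours read in opposite directions. A match is a description of the letters and does not show that a factor binds there.

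Some arrays stood apart in ways that touch the jejunal results. Between 7041 and 8821 probes were detected per array, and arrays of 1 group correlated at 0.93 to 0.989. The ileal bile acid binding protein gene Fabp6 stood at 14.22 to 14.43 on a log2 scale in all ileal arrays, and at 5.96, 6.15 and 7.15 on SBS jejunum arrays 1 to 3. It reached 13.56 on SBS jejunum array 4 and 11.50 on the sham jejunal array. Slc10a2, the ileal bile acid transporter gene, was at 6.47 to 7.27 in ileum, 4.59 in the sham jejunum and 4.60 ± 0.25 (SD, n = 4) in SBS jejunum. In jejunum it was detected only on SBS array 4, at 4.96. SBS jejunum array 1 had the pancreatic lipase gene Pnlip at 9.12, against at most 5.30 elsewhere. The jejunal results that passed the test, and those of Irf7 and Mx1, were therefore also computed without array 1 and without array 4. Epithelial marker genes, of which 8 were measured, had summed levels of 24770 to 27001 in sham ileum, 23008 to 25441 in SBS ileum, 21676 in sham jejunum and 19081 to 22179 in SBS jejunum.

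**Figure D1:**
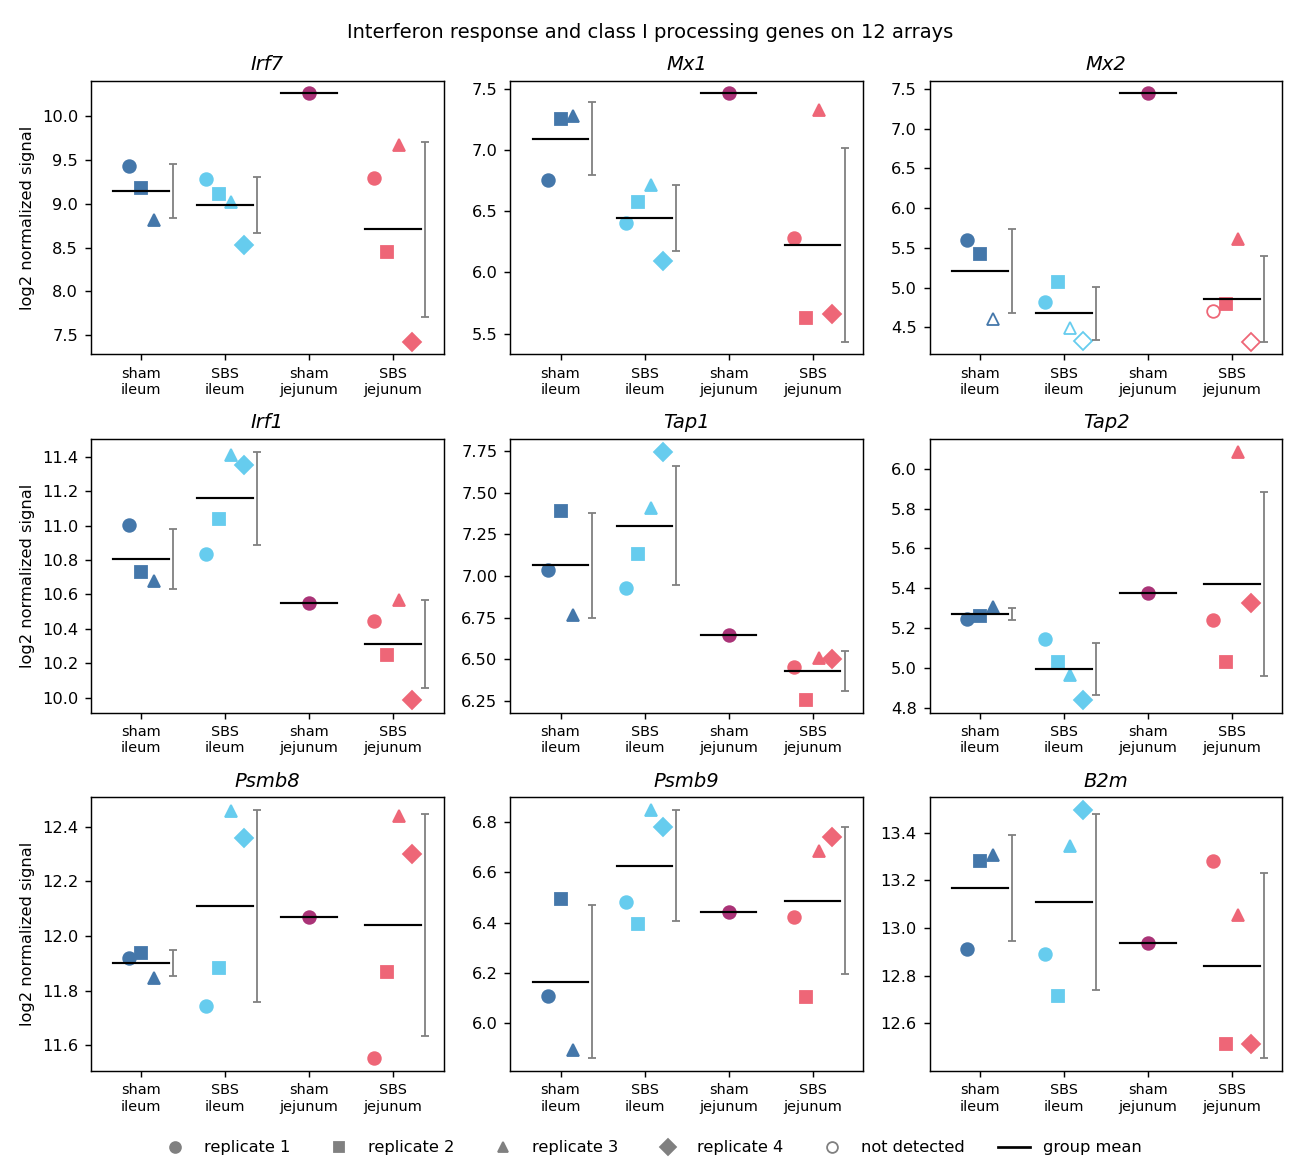
Log2 level of each of the 9 genes on each of the 12 arrays, by group, with the replicate shown by the marker shape, open markers where the probe was not detected, grey bars for the SD and a black line for the group mean. Mx2 reached 7.44 on the sham jejunal array and stayed at or below 5.61 on the other 11, and Irf1 and Tap1 in SBS jejunum lay below every SBS ileal array.

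The 9 genes are taken below in sets that were formed after their values were seen. Irf7, Mx1 and Mx2 were highest on the single sham jejunal array, and of these Mx2 fell in resected jejunum by the test over all probes. Irf1 and Tap1 were lower in jejunum than in ileum of SBS rats, with groups that did not overlap. Irf7, Mx1, Psmb8, Psmb9, Tap2 and B2m passed the test in none of the 5 comparisons. These were resected against sham in each region, the difference of these effects, and jejunum against ileum in each operation. All p-values below are from limma, adjusted by Benjamini-Hochberg over 9137 probes. In this bulk tissue, fewer cells of a type and less RNA per cell cannot be told apart.

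Mx2 encodes a GTPase of the Mx family, which is induced by type I and III interferon. Its levels were 5.60, 5.42 and 4.61 in sham ileum, 4.82, 5.07, 4.50 and 4.33 in SBS ileum, 7.44 in sham jejunum, and 4.70, 4.80, 5.61 and 4.32 in SBS jejunum. The lowest level among detected probes was 4.64 to 4.90 per array, so most of these values lie close to the detection limit, and the probe was undetected on 1 of 3 sham ileal, 2 of 4 SBS ileal and 2 of 4 SBS jejunal arrays. The sham jejunal value stood above all the others. Mx2 was lower in SBS than in sham jejunum (log2 difference -2.58 ± 0.46, SE, adjusted p = 0.017), with a mean of 4.86 ± 0.54 (SD, n = 4) against 7.44 (n = 1). Since 2 of the 4 SBS values were not above background, the size of the difference depends on the background correction, and no fold is given.

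That call rests on the lone sham jejunal array, whose spread was assumed to equal that of the other groups. The rat, the array and the operation cannot be told apart there. Without SBS jejunum array 1 the difference was -2.54 (adjusted p = 0.0314), and without array 4 it was -2.38 (adjusted p = 0.0194). It lost the call when the fit held the 5 jejunal arrays alone (adjusted p = 0.12) and when no probe was filtered out (adjusted p = 0.0698). With a larger offset in the background correction, or with the authors' values without background correction, it was -1.70 and -1.69, and still called. In ileum Mx2 differed by -0.53 ± 0.31 (adjusted p = 0.433) between SBS and sham, and the jejunal effect differed from the ileal one by -2.05 ± 0.55 (adjusted p = 0.285).

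Irf7 encodes the factor that amplifies type I interferon production. It stood at 9.43, 9.17 and 8.82 in sham ileum, 9.28, 9.11, 9.02 and 8.53 in SBS ileum, 10.26 in sham jejunum, and 9.29, 8.44, 9.67 and 7.42 in SBS jejunum. The sham jejunal array was again the highest of the 12. SBS jejunum spread over more than 2 log2 units (SD 1.00), with array 4 the lowest of all. The difference between SBS and sham jejunum, -1.55 ± 0.63, did not pass (adjusted p = 0.331), and that in ileum was -0.16 ± 0.43 (adjusted p = 0.892). The jejunal difference was -1.73 without SBS jejunum array 1 (adjusted p = 0.229) and -1.13 without array 4 (adjusted p = 0.262).

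Mx1, a second Mx gene and a widely used readout of type I and III interferon, measured 6.75, 7.26 and 7.28 in sham ileum and 6.40, 6.58, 6.72 and 6.09 in SBS ileum. It measured 7.46 in sham jejunum and 6.28, 5.63, 7.33 and 5.66 in SBS jejunum. Every SBS array was below every sham array of its region, by -0.65 ± 0.35 in ileum (adjusted p = 0.395) and -1.24 ± 0.51 in jejunum (adjusted p = 0.347), and neither difference passed. Without SBS jejunum array 3, the highest of its group, the jejunal difference was -1.60 and passed (adjusted p = 0.0486). It was -1.25 without array 1 (adjusted p = 0.343) and -1.05 without array 4 (adjusted p = 0.393).

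In sham rats, Mx2 in jejunum exceeded the ileal mean by 2.23 ± 0.47, with adjusted p = 0.0625, and with rat as a random block by 2.10 with adjusted p = 0.0304. The corresponding differences were 1.12 ± 0.65 for Irf7 (adjusted p = 0.686) and 0.37 ± 0.53 for Mx1 (adjusted p = 0.905). Of all probes, 0.624% were called in this comparison of 3 arrays with 1 (57 probes, and 154 with rat as a block), and 0 of the 9 genes were, with 1 (Mx2) at an unadjusted p under 0.05 beside 8.97% of all probes. In SBS rats the jejunal minus ileal differences of Mx2, Irf7 and Mx1 were 0.18, -0.28 and -0.22, with adjusted p of 0.796 to 0.823. Without SBS jejunum array 4 that of Irf7 was 0.15 (adjusted p = 0.802). Within rats the sign varied. The jejunum of rat 33 exceeded its ileum by 1.84 for Mx2, 0.83 for Irf7 and 0.71 for Mx1, that of rat 38 by 1.11, 0.65 and 0.61, and in rat 37 all 3 genes were lower in jejunum. In rat 39 Irf7 and Mx1 were lower in jejunum, by -1.11 and -0.43, and Mx2 was undetected in both regions.

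Irf1 encodes a factor induced by interferon gamma that drives class I processing genes. Its levels were 11.00, 10.73 and 10.68 in sham ileum, 10.83, 11.04, 11.41 and 11.35 in SBS ileum, 10.55 in sham jejunum, and 10.45, 10.25, 10.57 and 9.99 in SBS jejunum. The 5 jejunal arrays were all below the 7 ileal arrays. In SBS rats Irf1 was 1.80-fold lower in jejunum than in ileum (-0.85 ± 0.17, adjusted p = 0.00731), with means of 10.31 ± 0.25 and 11.16 ± 0.27 (SD, n = 4 each). By rat, the jejunal minus ileal difference was -0.39, -0.79, -0.84 and -1.37 in SBS rats 36 to 39 and -0.45 in sham rat 33. It was -0.75 without SBS jejunum array 4 (adjusted p = 0.0147) and -0.89 without array 1 (adjusted p = 0.0109).

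Tap1 encodes 1 chain of the peptide transporter. It stood at 7.04, 7.39 and 6.77 in sham ileum, 6.93, 7.13, 7.41 and 7.75 in SBS ileum, 6.65 in sham jejunum, and 6.46, 6.26, 6.51 and 6.50 in SBS jejunum. As with Irf1, each jejunal array was below each ileal array, and the SBS jejunal values lay close together. Tap1 was 1.83-fold lower in jejunum than in ileum of SBS rats (-0.87 ± 0.18, adjusted p = 0.0108), with means of 6.43 ± 0.12 and 7.30 ± 0.36 (SD, n = 4 each). The difference within rats 36 to 39 was -0.47, -0.87, -0.90 and -1.24, and in rat 33 it was -0.39. Without SBS jejunum arrays 1 or 4 it was -0.87 (adjusted p = 0.0212) and -0.89 (adjusted p = 0.0178), and with arrays scaled to equal medians in place of equal distributions it was -0.85 and missed the threshold (adjusted p = 0.0572).

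Irf1 and Tap1 were the 2 of the 9 genes called lower in this comparison, in which 4.39% of all probes were called lower and 9.29% in either direction. Lower calls were 47.2% of the calls, and 32.2% with arrays scaled to equal medians. With rat as a random block both stayed called, and 1519 probes in place of 849 were called. Both were also the only members whose SBS groups did not overlap between regions, against 6.42% of all probes that were lower without overlap, and 3 of 9 (with Tap2) had an unadjusted p under 0.05, beside 21.2%. In sham rats, Irf1 differed between regions by -0.26 ± 0.27 (adjusted p = 0.866) and Tap1 by -0.42 ± 0.30 (adjusted p = 0.779), so the regional difference was measured with replicates in SBS rats alone. Resection moved neither past the test. Irf1 differed by 0.35 ± 0.18 in ileum (adjusted p = 0.357) and -0.24 ± 0.26 in jejunum (adjusted p = 0.847), and Tap1 by 0.24 ± 0.20 (adjusted p = 0.598) and -0.22 ± 0.29 (adjusted p = 0.883). Over the 12 arrays Irf1 and Tap1 correlated at r = 0.865, a description in which regions, rats and arrays are shared.

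Tap2, the partner chain of Tap1, did not share its pattern. Tap2 was dim, at 5.25, 5.26 and 5.31 in sham ileum, 5.15, 5.03, 4.96 and 4.84 in SBS ileum, 5.38 in sham jejunum, and 5.24, 5.03, 6.08 and 5.33 in SBS jejunum. Its jejunal minus ileal difference in SBS rats was 0.43 ± 0.19 (adjusted p = 0.227), with the opposite sign to Tap1, and SBS jejunum array 3 was the highest. SBS ileum was below sham ileum without overlap, by -0.28 ± 0.21 (adjusted p = 0.559), and in jejunum the difference was 0.04 ± 0.30 (adjusted p = 0.981).

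Psmb8, which encodes an inducible catalytic subunit of the proteasome, was among the brightest members at 11.92, 11.94 and 11.85 in sham ileum, 11.74, 11.88, 12.46 and 12.36 in SBS ileum, 12.07 in sham jejunum, and 11.55, 11.87, 12.44 and 12.30 in SBS jejunum. Among SBS rats its level followed the rat rather than the region, since rats 38 and 39 were above rats 36 and 37 in both. The jejunal minus ileal difference was -0.19, -0.02, -0.02 and -0.06 in rats 36 to 39. Over the groups it was -0.07 ± 0.21 (adjusted p = 0.911, 95% interval -0.53 to 0.39), and the difference between SBS and sham was 0.21 ± 0.23 in ileum (adjusted p = 0.692) and -0.03 ± 0.33 in jejunum (adjusted p = 0.988).

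Psmb9, a second inducible subunit, measured 6.11, 6.49 and 5.89 in sham ileum, 6.48, 6.39, 6.85 and 6.78 in SBS ileum, 6.44 in sham jejunum, and 6.42, 6.10, 6.69 and 6.74 in SBS jejunum. As for Psmb8, rats 38 and 39 were the higher ones in both regions. In ileum the SBS mean exceeded the sham mean by 0.46 ± 0.19 with overlapping groups. This was the only member at an unadjusted p under 0.05 in ileum, and it did not pass (adjusted p = 0.255). The regional difference in SBS rats was -0.14 ± 0.18 (adjusted p = 0.77, 95% interval -0.53 to 0.25), although Psmb9 and Tap1 are neighbours.

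**Figure D2:**
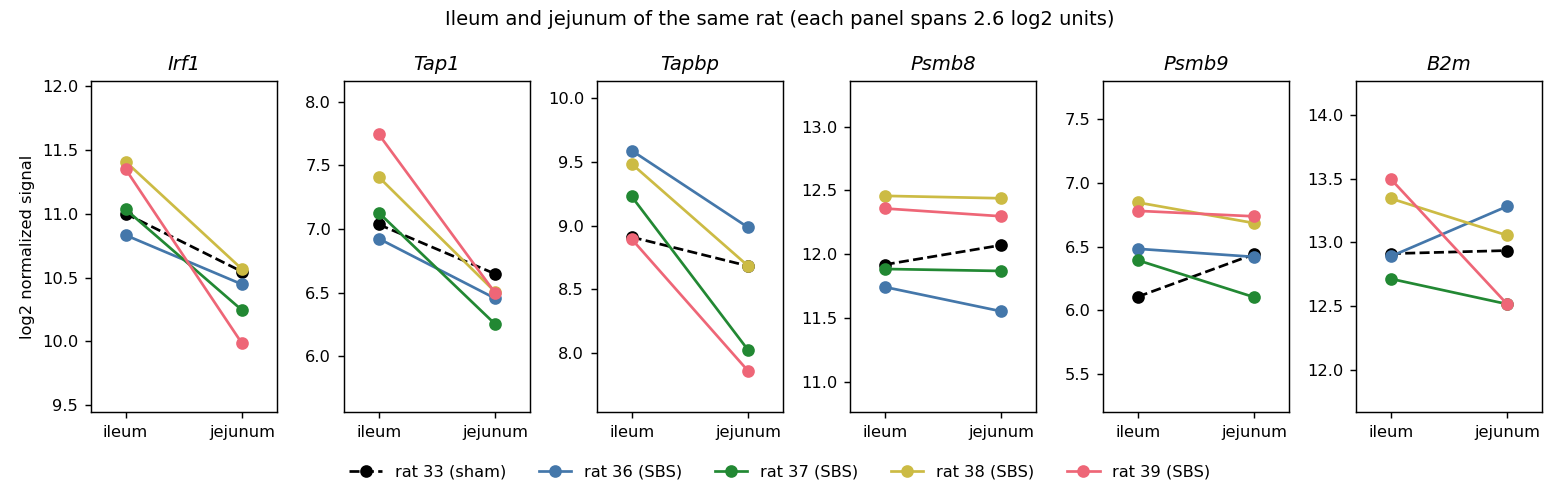
Log2 level in ileum and jejunum of the same rat, 1 line per rat, for Irf1, Tap1, the tapasin gene Tapbp, Psmb8, Psmb9 and B2m in the 5 rats with both regions, with sham rat 33 dashed and each panel spanning the same number of log2 units. The lines of Irf1, Tap1 and Tapbp fell in all 5 rats, while those of Psmb8 in SBS rats ran nearly level, with differences of -0.19 to -0.02.

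The third inducible subunit gene, Psmb10, had group means of 10.59 ± 0.07 (SD, n = 3) in sham ileum, 10.56 ± 0.32 (n = 4) in SBS ileum, 10.52 (n = 1) in sham jejunum and 10.28 ± 0.12 (n = 4) in SBS jejunum, and was not called in any comparison. Of the 7 constitutive proteasome beta subunit genes, all measured, 0 were called in each of the 5 comparisons by limma. Between SBS and sham ileum 1 had an unadjusted p under 0.05, beside 16.8% of all probes. Between regions of SBS rats 1 did, beside 21.2%. The median difference of the 7 between SBS and sham was 0.16 in ileum and 0.09 in jejunum.

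B2m was the brightest of the 9, at 12.91, 13.28 and 13.31 in sham ileum, 12.89, 12.71, 13.34 and 13.50 in SBS ileum, 12.94 in sham jejunum, and 13.28, 12.52, 13.05 and 12.52 in SBS jejunum. All groups overlapped. The largest of its tested differences was -0.27 ± 0.22, between jejunum and ileum of SBS rats (adjusted p = 0.588), and resection gave -0.06 ± 0.24 in ileum (adjusted p = 0.931) and -0.09 ± 0.35 in jejunum (adjusted p = 0.968). The level of a probe also depends on the probe, so these levels set no order of abundance between genes.

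**Figure D3:**
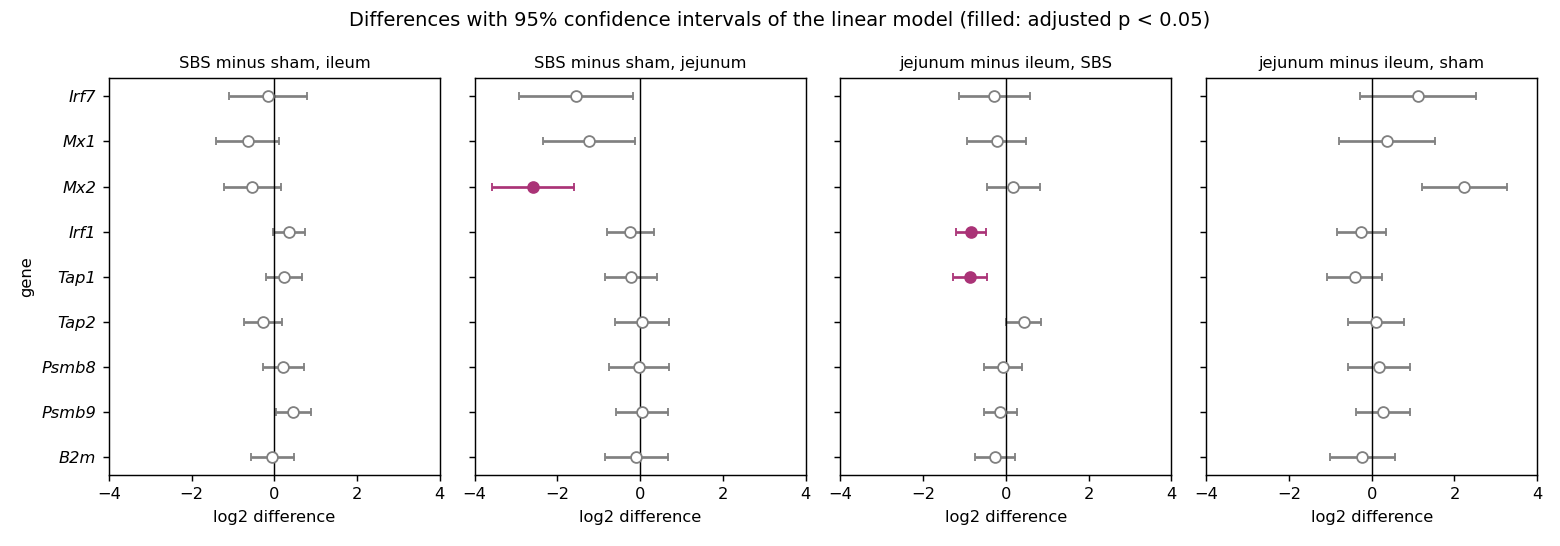
Log2 difference of each of the 9 genes in 4 comparisons (SBS minus sham in ileum and in jejunum, jejunum minus ileum in SBS and in sham rats), with 95% intervals, filled where the adjusted p was under 0.05. The filled points are Mx2 between SBS and sham jejunum (-2.58) and Irf1 (-0.85) and Tap1 (-0.87) between jejunum and ileum of SBS rats.

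Counted over the 9 genes, resection in ileum called 0 of 9, beside 2.94% of all probes, and 1 (Psmb9) had an unadjusted p under 0.05, beside 16.8%. In that comparison the members' median difference was -0.06 and that of all probes 0.03, and Mx1 and Tap2 were lower without overlap, beside 8.43% of all probes. In jejunum 1 of 9 was called, and lower, beside 1.47% of all probes called and 0.832% called lower, and 3 had an unadjusted p under 0.05 (Irf7, Mx1 and Mx2) beside 11.9% of all probes. The jejunal median was -0.22 against 0.01 over all probes, and all 4 SBS arrays lay below the sham array for Irf7, Mx1, Mx2 and Tap1, which is 4 of 9 beside 19.9% of all probes. For the difference of the jejunal and ileal effects, 0 of 9 were called, beside 0.197% of all probes (18, and 36 with rat as a block), and 1, Mx2, had an unadjusted p under 0.05, beside 5.49% of all probes. The jejunal and ileal effects share no array, but by the codes the arrays share rats.

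Other interferon-induced genes were drawn from a list of 63, of which 46 were on the array and 31 passed the filter. In jejunum 2 of the 31 were lower after resection, beside 0.832% of all probes, and 29 did not pass. Ifi44, an antiviral protein gene induced by type I interferon, was at 6.06 in sham jejunum and 5.12, 5.09, 5.15 and 4.70 in SBS jejunum (-1.04 ± 0.20, adjusted p = 0.027). Dhx58, which encodes the RNA sensor LGP2, was at 6.04 and then 5.14, 4.83, 4.90 and 5.11 (-1.05 ± 0.22, adjusted p = 0.0385). For both genes the sham jejunal array was the highest of all 12. Both genes stayed called without SBS jejunum array 1 or 4. Both calls were lost in the fit of the jejunal arrays alone, with adjusted p of 0.226 for Ifi44 and 0.188 for Dhx58. They were also lost without sham ileum array 3, at adjusted p of 0.0501 for Ifi44 and 0.0632 for Dhx58. That of Dhx58 was lost in 10 of 21 alternative settings, and with 1 array left out at a time the count of called genes ran from 0 to 3.

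The 31 genes had a median difference of -0.50 between SBS and sham jejunum, 26 were below 0, and 17 were below the sham array on all 4 SBS arrays, beside 19.9% of all probes. The largest difference was that of Ifi27, a small mitochondrial protein gene induced by type I interferon, at -2.04 (adjusted p = 0.0508). In ileum 0 of 31 were called by limma, 8 had an unadjusted p under 0.05, beside 16.8% of all probes, and the median was 0.12 with 20 above 0. That count of 0 ran up to 2 with 1 array left out and was 6 with array weights. Without overlap, 9 of the 31 were higher in SBS ileum and 1 was lower, the latter beside 8.43% of all probes. The share of all probes higher without overlap is not given here. In sham rats, the lone jejunal array was above the ileal arrays for 20 of the 31 genes, beside 31.9% of all probes, with a median of 0.38. That array supplies the sham jejunal value of every gene in this count, in the jejunal count of 17 and in the jejunal minus ileal effect. That effect had a median of -0.74, with 12 at an unadjusted p under 0.05, beside 5.49% of all probes, and 0 called by limma. The 31 genes are not replicates of the condition, and the rat, the array and the operation cannot be told apart there.

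**Figure D4:**
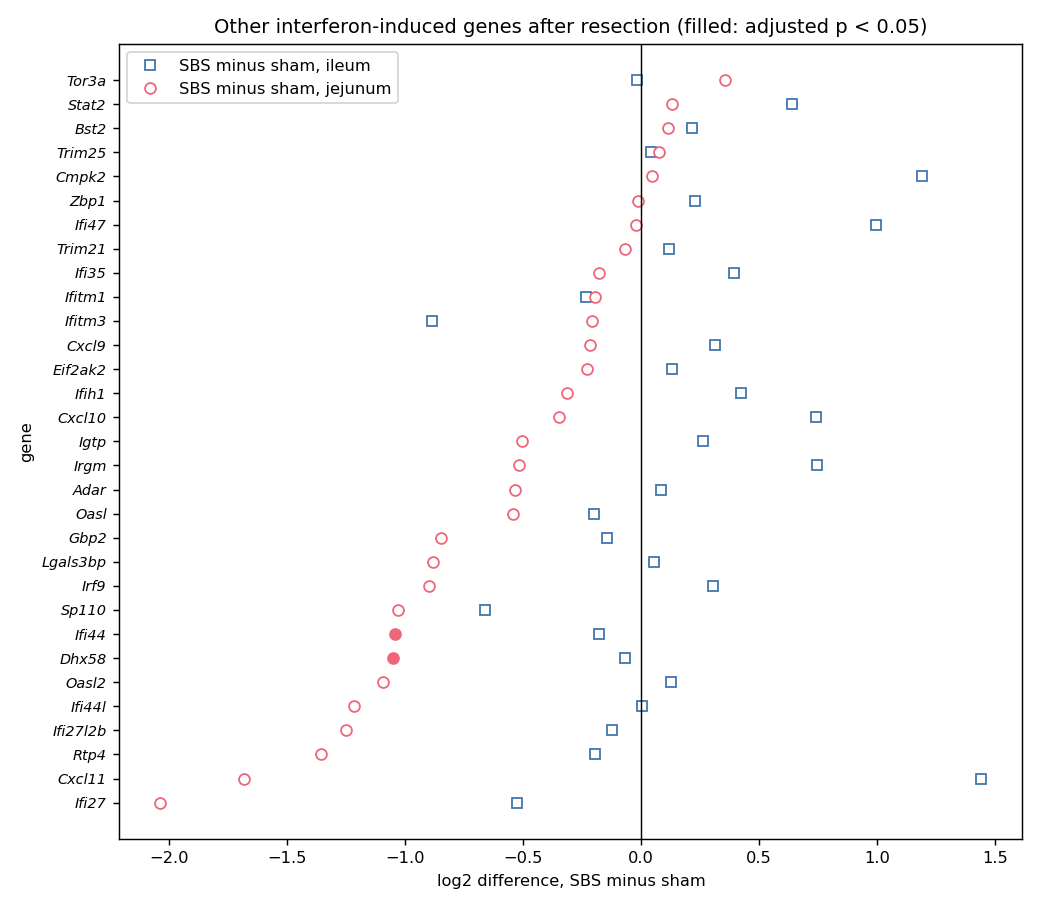
Log2 difference between SBS and sham of the 31 other interferon-induced genes, with squares for ileum and circles for jejunum, filled where the adjusted p was under 0.05. The jejunal points lie mostly left of 0, with 26 of 31 negative and a median of -0.50, and the filled points are Ifi44 and Dhx58 in jejunum.

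Between regions in SBS rats, 4 of the 31 were lower in jejunum, beside 4.39% of all probes, and 27 did not pass. Cxcl10, a chemokine gene induced by interferon gamma that draws T cells, was at 5.54, 6.23, 5.67 and 6.66 in ileum and 4.83, 4.57, 5.03 and 4.85 in jejunum (-1.21 ± 0.23, adjusted p = 0.00536). Cxcl9, which encodes a ligand of the same receptor, differed by -1.21 ± 0.26 (adjusted p = 0.0127) with groups that just overlapped. Ifi27 went from 9.16 ± 0.50 in ileum to 7.65 ± 0.45 in jejunum (SD, n = 4 each, adjusted p = 0.00584), and Ifitm1, a membrane protein gene that limits virus entry, from 6.38 to 5.64 (-0.73 ± 0.17, adjusted p = 0.0167). Cxcl9 and Cxcl10 were detected on 2 of 4 SBS jejunal arrays each, near the detection limit. The count of 4 was 6 without SBS ileum array 1, 8 without SBS jejunum array 3 and 4 without SBS jejunum array 1 or 4.

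Several classical interferon targets were not measurable here. Isg15, Ifit1, Ifit2, Ifit3, Oas1b, Oas1f, Oas1i, Oas2, Gbp4, Gbp5, Dtx3l and Epsti1, which are 12 of the 46 genes on the array, were detected on 0 arrays. Of the interferons, their receptors and their signalling genes, 24 of 34 were on the array and 12 passed the filter. Ifnb1, Ifna4 and Ifnk were detected on 0 arrays and Ifng on 1. Irf5, a factor of myeloid and B cells, was lower in SBS ileum (5.82 to 4.74, adjusted p = 0.0384), a call lost in 12 of 23 alternative settings, among them without sham ileum arrays 2 (adjusted p = 0.184) or 3 (adjusted p = 0.18). Il10rb, a receptor chain used by type III interferon and interleukin 10, was lower in jejunum than in ileum of SBS rats (9.54 to 8.93, adjusted p = 0.00329), and Ciita, the class II transactivator gene, was at least 1.37-fold lower (adjusted p = 0.00648), being undetected on all 4 SBS jejunal arrays. Irf5 was the 1 of 12 called between SBS and sham ileum, beside 2.94% of all probes. Il10rb and Ciita were the 2 of 12 called between regions of SBS rats, where 4.39% of all probes were called lower. Between SBS and sham jejunum 0 of the 12 were called by limma, beside 1.47% of all probes. There 2 of the 12 had an unadjusted p under 0.05, beside 11.9% of all probes.

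Other genes of class I presentation numbered 50, with 37 on the array and 28 measured. In SBS rats 7 of the 28 were lower in jejunum than in ileum, beside 4.39% of all probes, 0 were higher, and the median was -0.32, with 22 below 0. Tapbp encodes tapasin, which holds the class I heavy chain at the transporter. It was at 9.59, 9.23, 9.49 and 8.90 in SBS ileum and 8.99, 8.03, 8.69 and 7.86 in SBS jejunum (-0.91 ± 0.24, adjusted p = 0.0357). The groups overlapped, but jejunum was lower in all 5 rats, by -0.23 in rat 33 and by -0.60, -1.20, -0.80 and -1.03 in rats 36 to 39. The call of Tapbp was lost in 12 of 23 alternative settings, including without SBS jejunum array 4 (-0.74, adjusted p = 0.0707).

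The other called members of that list that are named here are class I heavy chain genes of the rat RT1 complex. RT1-T24-4 differed by -1.46 ± 0.19 (adjusted p = 0.000433), RT1-CE15 by -1.26 ± 0.19 (adjusted p = 0.00135), RT1-M6-2 by -0.92 ± 0.20 (adjusted p = 0.0118), RT1-CE7 by -0.80 ± 0.15 (adjusted p = 0.0044) and RT1-N3 by -0.51 ± 0.14 (adjusted p = 0.0454). These genes belong to a family of related sequences, and whether each probe reads only 1 of them was not tested. RT1-N3 was also lower after resection, by -0.75 ± 0.16 in ileum (adjusted p = 0.0248) and -1.45 ± 0.23 in jejunum (adjusted p = 0.0103). It was the 1 of 28 called in each, beside 2.94% of all probes called in ileum and 1.47% in jejunum. Its ileal call was lost in 8 of 23 alternative settings, among them without sham ileum array 1 (adjusted p = 0.0761), 2 (adjusted p = 0.0868) or 3 (adjusted p = 0.116), its jejunal call in the fit of the jejunal arrays alone (adjusted p = 0.12), and its regional call in 15 of 23. The count of 7 was 4 to 7 with 1 array left out at a time. It was 4 without any single sham ileal array, without SBS ileum array 2 or 3 and without SBS jejunum array 2, 6 without SBS jejunum array 1 and 5 without SBS jejunum array 4.

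Some markers of immune cells, and class II presentation genes, moved with these differences. In SBS rats 9 of 17 measured T and NK cell marker genes were lower in jejunum than in ileum, beside 4.39% of all probes. Among them were Gzma, Cd8a, Ccl5, Lck, Cd3d and Cd3e, and the median of the 17 was -0.79. With 1 array left out, the count of 9 ran from 4 (without SBS ileum array 2) to 10 (without SBS jejunum array 1). It was 5 without SBS jejunum array 2 and 6 without SBS jejunum array 4 or SBS ileum array 1 or 3. The summed level of the 25 genes on the array was 4118 to 6503 in SBS ileum, 1603 to 2807 in SBS jejunum, 3361 to 4043 in sham ileum and 2949 in sham jejunum, and 7 of the 25, including Cd4, Cd28 and Ncr1, were detected on 0 arrays. Class II presentation genes were lower too, 5 of 8 in SBS jejunum against SBS ileum (Cd74, RT1-Ba, RT1-Da, RT1-Db1 and RT1-DMb), beside 4.39% of all probes. In SBS against sham jejunum 4 of 8 were lower (Cd74, RT1-Ba, RT1-Da and RT1-Db1), beside 0.832% of all probes. The count of 4 rests on the lone sham jejunal array. It was 1 in the fit of the jejunal arrays alone and 2 with no probe filtered out, and it was 4 without SBS jejunum array 1 or 4. Their summed level was 20830 to 23316 in sham ileum, 17670 to 19959 in SBS ileum, 16906 in sham jejunum and 3792 to 6532 in SBS jejunum. Between regions of SBS rats 0 of 9 leukocyte markers were called by limma, beside 9.29% of all probes, with a median of -0.73. Of these 9, 5 had an unadjusted p under 0.05, beside 21.2% of all probes. Of 5 B and plasma cell markers 0 were called and 0 had an unadjusted p under 0.05 (median -0.06). Of 6 measured myeloid markers 0 were called by limma and 1 had an unadjusted p under 0.05 (median -0.12). Which cells gave the class II signal was not tested. The part of immune cells in the differences of Irf1, Tap1, Tapbp, Cxcl10 and Mx2 was not tested either.

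In ileum, where 0 of the 9 interferon and class I members were called, 4 of them had an SBS mean above and 5 below the sham mean. Of the 9 measured leukocyte markers 7 were lower in SBS ileum, including Ptprc, Rac2, Coro1a, Cd53, Lcp1 and Arhgdib. Of 5 B and plasma cell markers 4 were (Ms4a1, Cd79b, Cr2 and Mzb1), as was RT1-DOb, 1 of 8 class II genes. Of all probes 2.94% were called in this comparison, and 77.7% of these calls were lower. Without sham ileum array 2 or 3, 0 leukocyte and 2 B and plasma cell markers were called, and without SBS ileum array 1, 3 or 4 the leukocyte count was 2 to 3. The summed leukocyte level was 5480 to 11118 in sham ileum and 1813 to 4879 in SBS ileum, with Cd52 and Itgal detected on 0 arrays. In jejunum 0 of the 9 leukocyte markers were called, and 8 had an unadjusted p under 0.05, beside 11.9% of all probes. The summed leukocyte level there was 4988 in sham and 1190 to 1795 in SBS. Of 6 measured myeloid, 3 pancreatic and 3 smooth muscle markers 0 were called in each of the 5 comparisons by limma. Each of these lists had at most 1 gene at an unadjusted p under 0.05 in any comparison. Of all probes, 5.49% to 21.2% had such a p in the 5 comparisons. Of 8 epithelial markers 1, Cdx2, was lower in SBS jejunum than in SBS ileum, beside 4.39% of all probes. In that comparison 7 of the 8 were below 0, with a median of -0.34, and 4 had an unadjusted p under 0.05, beside 21.2% of all probes.

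The 5 genes most like the mean standardised level of the 9, out of 6695 compared over the 12 arrays, were RT1-S3 (r = 0.854), a class I gene, Cirbp (r = 0.842), Irf9 (r = 0.807), which encodes the DNA-binding subunit of ISGF3, Trpt1 (r = 0.803) and Slfn4 (r = 0.794). The arrays share regions and rats, so these values describe the set and carry no test. Among the members, Irf7 correlated with Mx2 at r = 0.775 and with Mx1 at r = 0.761, and Psmb8 with Psmb9 at r = 0.69.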

How the data were processed

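Per the labels, RNA of intestinal mucosa was hybridized to Illumina bead arrays. RatRef-12 is the chip in the protocols, and Rat Quad that in the design text. The deposited signal table gave each probe's mean bead intensity on a linear scale, not normalized, and a detection p-value per array, as the authors deposited it. The deposited series matrix held log2 values. They matched quantile normalized log2 signals without background correction within 0.012, with a median of 5.86 on every array. The scanner software is not given in the sources used here.

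Signals were background corrected with normexp from the detection p-values (offset 16), then quantile normalized as log2 values (limma 3.58.1, R 4.3.3). A probe was kept if 3 or more of 12 arrays detected it with p under 0.05. Group means were fitted to the 12 arrays together (lmFit, eBayes), which gave differences with SE, two-sided p-values and Benjamini-Hochberg adjustment over 9137 probes, and an adjusted p under 0.05 was called. The fit was checked on simulated data. The number of arrays limits the precision. Symbols came from the platform annotation, updated through RefSeq identifiers for 4 of 13787 probes with a symbol, while 8730 had none. Where a gene had several probes, the brightest stood for it, and the gene was not tested if that probe failed the filter. For the likeness between genes, the brightest kept probe was used.

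The 9 genes and all lists (other interferon-induced, interferon signalling, other class I, class II, constitutive proteasome, T and NK, leukocyte, B and plasma, myeloid, epithelial, pancreatic and smooth muscle) were chosen with earlier results of these data known, and Fabp6 and Slc10a2 were added for that reason. Named were all 9 genes, up to 6 called genes per other list and comparison, and the 5 genes most like the 9. Ifi27 in jejunum, the detection of single genes, Psmb10 and Pnlip were named after their values were seen. A summed level is the sum of a list's background-corrected levels, taken off the log2 scale, on 1 array. Nothing states that tissue of 1 rat was sampled separately for each array, so p-values measure the spread between these samples. Deviations from the group means of arrays with the same code correlated at 0.66, 0.47, 0.19 and 0.44 in rats 36 to 39. Arrays with different codes were not compared in this way, so these values alone do not show that the codes pair the samples. The pairing was taken from the sample codes, and rat as a random block (consensus correlation 0.349) was an alternative. Other alternatives were the background correction, the normalization, the filter, array weights, the arrays in the fit and leaving out each array.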

Additional observations from a re-analysis of the deposited data

How the results depend on the processing

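Over 24 alternative settings, 1017 differences of the 9 genes were recomputed. In 31 the sign changed, and 0 of these were called in either fit. Some settings could not change a sign, among them no filter, the compared groups alone and the mean over a gene's probes, as each gene had 1 probe. The count of 31 is therefore out of fewer differences that could change. The call of Irf1 between regions of SBS rats held in 24 of 24 settings and that of Tap1 in 23 of 24, lost with median scaling, which left 1 gene called there. Of the 9 genes, 0 were called in resected against sham jejunum with no filter and with the jejunal arrays alone. The first tests 22517 probes and the second leaves 5 arrays to estimate the spread. Between regions of sham rats, 1 gene (Mx2) in place of 0 was called with the series matrix (1.49, adjusted p = 0.0492), offset 50 (1.54, adjusted p = 0.0224), array weights (2.26, adjusted p = 0.0171) and the rat as a replicate block (2.10, adjusted p = 0.0304). The cause was not tested. Leaving out each array in turn gave 1 to 2 called genes in resected jejunum, 2 (with Mx1) without SBS jejunum 3, and 0 to 1 in the sham regional comparison, 1 without SBS jejunum 3 or 4. With the replicate number of the titles as a block, Irf1 (adjusted p = 0.00749) and Tap1 (adjusted p = 0.00363) stayed called in SBS rats and 0 of 9 in ileum. No such block could be fitted for the other comparisons, which share 1 number or hold all groups, and the rat block changed no other call of the 9. Over all probes, the calls numbered 269 in resected against sham ileum, from 25 (without sham ileum 2) and 26 (without sham ileum 3) to 930 (array weights). They numbered 134 in jejunum, from 21 (jejunal arrays alone) to 244 (array weights), 18 for the difference of the effects, from 8 (without sham ileum 2) to 51 (array weights), 849 between regions of SBS rats, from 592 (without SBS ileum 3) to 1519 (rat block), and 57 in sham rats, from 27 (without sham ileum 3) to 267 (array weights). With median scaling the lower share of calls was 91.0% in ileum (77.7% otherwise), 37.5% in jejunum (56.7%) and 31.8% for the difference of the effects (50%). Median scaling moved the median of all probes from -0.01 to 0.16 for the difference of the effects, from 0.03 to -0.09 in ileum and from -0.02 to -0.14 between regions of sham rats. Dim signal limits Mx2 and Tap2.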

Other observations

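After the values of the 9 genes were seen, likeness was also computed for 2 subsets over the same 12 arrays. Genes most like the mean of Irf7, Mx1 and Mx2 were Rtp4 (r = 0.922), Spats2l (r = 0.907), RT1-S3 (r = 0.899), Abca7 (r = 0.869) and Ifi27l2b (r = 0.862), of which Rtp4 and Ifi27l2b are on the list of other interferon-induced genes. Genes most like the mean of Irf1 and Tap1 were Pkig (r = 0.938), Slc25a29 (r = 0.919), the class II gene RT1-Ha (r = 0.91), Btbd10 (r = 0.897) and Lgals2 (r = 0.893). The subsets were picked for their differing patterns over these same arrays, so a comparison of the 2 lists carries no information. The arrays behind each value share regions and rats.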
